A study of Caenorhabditis elegans with 2 samples.

Results

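The neuropeptide and insulin-like peptide genes of Caenorhabditis elegans were taken as all protein-coding genes of the WBcel235 annotation whose name starts with flp-, nlp- or ins-. There were 140 such genes among 19973 protein-coding genes on the 6 nuclear chromosomes. Of these, 31 were flp genes, 71 were nlp genes and 38 were ins genes. Genes of the same signalling systems with other names, such as the insulin gene daf-28, are given separately below.

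The flp genes encode precursors of FMRFamide-like peptides, the nlp genes a mixed group of other neuropeptide-like precursors, and the ins genes peptides of the insulin family. Most precursors enter the secretory pathway and are packed into dense-core vesicles. There a proprotein convertase cuts flp and nlp precursors at pairs of basic residues, and the freed peptides are trimmed, often amidated, and released onto G protein-coupled receptors. Insulin-like peptides act through the receptor DAF-2, which links food and sensory state to growth, dauer entry and lifespan. Many of these genes are expressed in small sets of neurons, and some in intestine or epidermis.

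Occupancy of SET-16, the worm relative of the mammalian MLL3 and MLL4 histone methyltransferases, was mapped by ChIP-seq, in which DNA bound to a protein is pulled down and sequenced. All samples were whole L4 larvae of strain RW12223 at 48 hours, synchronised by starvation as L1 larvae after bleaching. In this line a CRISPR insertion placed TY1, EGFP and 3xFLAG tags on the endogenous set-16 gene on chromosome III, and the pull-down used an antibody against GFP. There were 2 biological replicates of this 1 group, and no untagged or mutant samples were used here. The control experiment that the labels name was not analysed here, so the values below are descriptions with no test between conditions. In whole animals, occupancy in fewer cells cannot be told apart from weaker occupancy in each cell.

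A gene was called when a peak summit lay between 1000 bp upstream of its annotated start and its end. The conservative list of the whole series, with 5795 peaks made from both replicates, was the main list. Replicate 1 had a list of 5876 peaks and replicate 2 of 4377, and a second whole-series list held 6905. The signal of a peak is the value the authors' caller gave it, on a scale not given in the sources used here, and it is compared only within a list or side by side between replicates. The score is a scaled irreproducible discovery rate (IDR) that reaches 1000, and every peak in these 4 thresholded lists scored at least 830. The ranked lists also hold weaker peaks.

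Few of the peptide genes carried a conservative summit. Of the 140 genes, 14 were called (10%), while 17.2% of all protein-coding genes were called by the same rule. By family, 3 of 31 flp genes (9.68%), 8 of 71 nlp genes (11.3%) and 3 of 38 ins genes (7.89%) were called. The flp genes were flp-14, flp-23 and flp-32. The nlp genes were nlp-21, nlp-32, nlp-25, nlp-40, nlp-68, nlp-14, nlp-12 and nlp-26, and the ins genes were ins-30, ins-39 and ins-24. Each gene had 1 summit except nlp-40, which had 4, so that 17 summits lay at the 14 genes. The share was also below that of all genes in the other lists. It was 9.29% (13 genes) against 17.4% in replicate 1, 7.14% (10 genes) against 14.2% in replicate 2, and 11.4% (16 genes) against 19.9% in the second list. In the conservative ranked list, 39 peptide genes (27.9%) had a summit, against 41.6% of all genes.

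**Figure D1:**
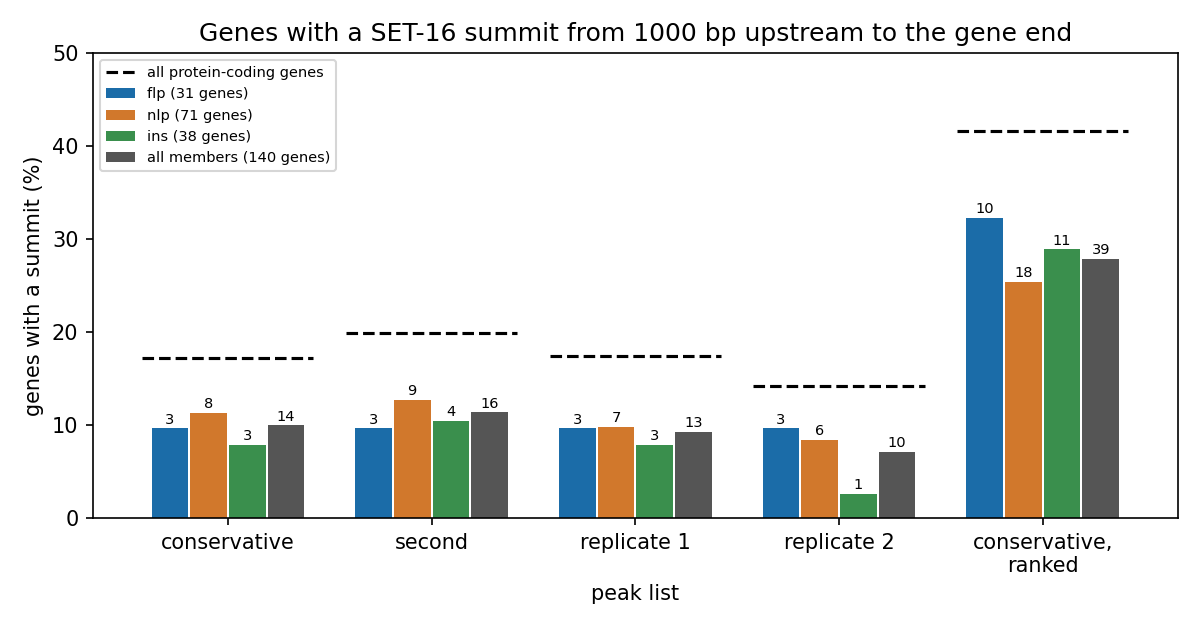
Bars give the percent of flp, nlp, ins and all 140 peptide genes with a summit in each peak list, with the number of genes above each bar; dashed lines give the percent of all 19973 protein-coding genes. The bars lie below the dashed line in each of the 5 lists, at 10% against 17.2% for all members in the conservative list.

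The peptide genes had shorter windows than most genes. Their median window was 1888 bp, against 3027 bp for all genes, and 54.3% had a window under 2000 bp, against 18.3% of all genes. Per length, the windows held 50.4 conservative summits per Mb, against 64.0 over the windows of all genes. The nlp windows held 63.3 per Mb, with 4 of the 11 nlp summits at the single gene nlp-40. The ins windows held 43.5 and the flp windows 31.8. In windows under 1500 bp, 1 of 24 members (4.17%) and 10.2% of all genes were called. From 1500 to 2000 bp the shares were 3 of 52 (5.77%) and 11.5%. From 2000 to 3000 bp they were 5 of 35 (14.3%) and 11.8%, the opposite order, which rests on few called members. From 3000 to 5000 bp 2 of 18 members were called (11.1% against 13.8%), and above 5000 bp 3 of 11 (27.3% against 34.2%). The part of window length in the lower share was not tested.

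Calls among the peptide genes followed the GC content of the DNA, as they did for other genes. For each window the highest GC content of any stretch with 100 bp to each side of its centre was taken. Its median was 56.5% in the 14 called genes and 48.0% in the 126 others. It was 50.7% over all flp genes, 48.3% over nlp genes and 47.3% over ins genes, and 49.3% over all protein-coding genes. None of the 35 members under 45% was called, against 0.112% of all genes in that class. From 45 to 50% 1 of 50 members was called, nlp-26 (2.00% against 1.19%), so the higher share of members there rests on 1 gene. From 50 to 55% 2 of 38 members were called (5.26%), against 15.1% of all genes in that class. From 55 to 60% 7 of 12 were called (58.3% against 65.0%), and at 60% or more 4 of 5 (80.0% against 93.6%). GC content of 55% or more was reached in 12.1% of member windows and 17.5% of all windows. The part of GC content in the lower share of calls was not tested.

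**Figure D2:**
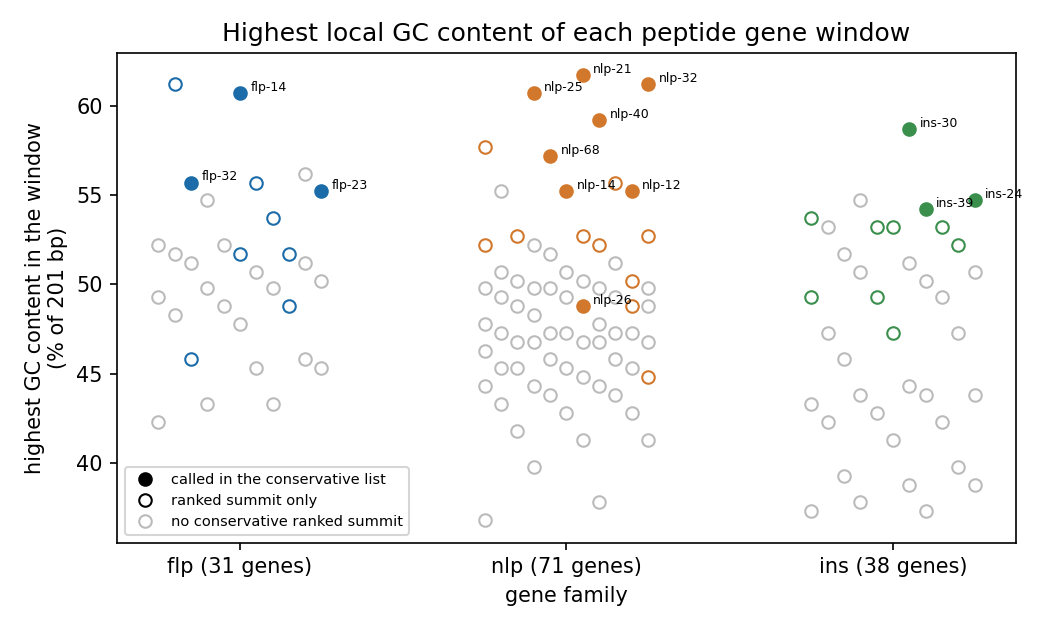
Each point is 1 of the 140 genes, placed by the highest GC content in its window (100 bp to each side of a centre); filled points were called in the conservative list and are named, open coloured points had a conservative ranked summit only, and grey points had none. The filled points lie in the upper part of each family, except nlp-26 at 48.8%, and the flp point at 61.2% that is not filled is flp-34.

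**Figure D3:**
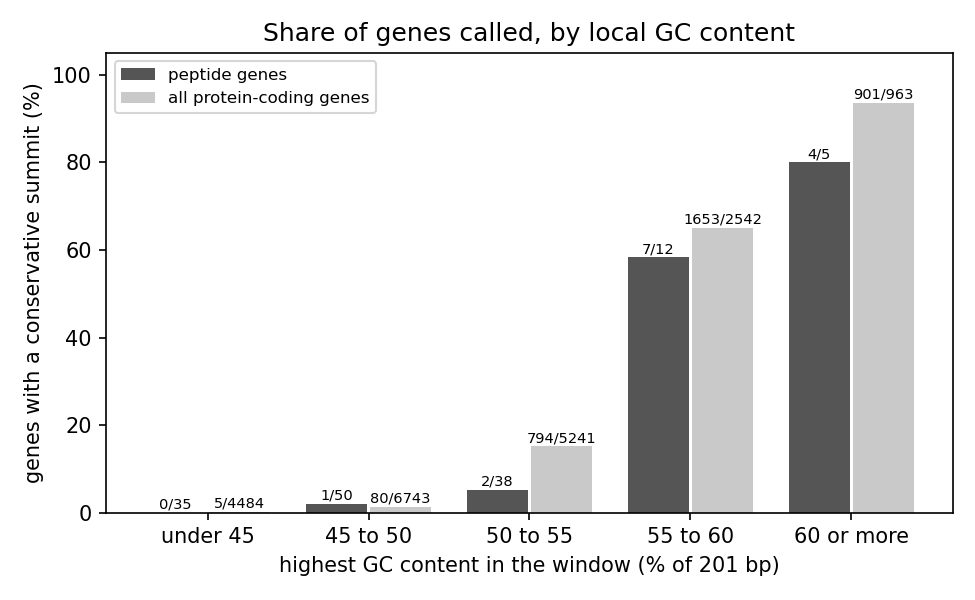
Bars give the percent of peptide genes (dark) and of all protein-coding genes (light) with a conservative summit, in 5 classes of highest GC content, with called genes over genes in the class above each bar. Both rise with GC content, the peptide genes to 4 of 5 and all genes to 901 of 963.

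Among the flp genes, flp-14 had the highest signal of the 140 genes. flp-14 (WBGene00001457, chromosome III 12910510 to 12914783, plus strand) encodes several copies of an RFamide peptide. Its summit had a signal of 643 in the conservative list, 408 in replicate 1 and 234 in replicate 2, and a score of 1000 in all 3. It lay 46 bp after the annotated start, in the first coding exon, and the replicate summits were 0 and 5 bp away. Of all conservative peaks, 91.1% had a lower signal. flp-23 (chromosome III 8650767 to 8652194) was called through a summit placed 319 bp before the gene. The signal was 226 there, and 114 and 110 in replicates 1 and 2. That summit lay within a tRNA gene on the minus strand (WBGene00023002, chromosome III 8650381 to 8650452). Of all conservative summits, 0.794% lay in a tRNA gene. flp-32 (chromosome X 15433787 to 15434972) was called through a summit 21 bp before the gene and 25 bp from the noncoding RNA gene R03A10.10. Its signal was 80.8, near the foot of the list, with 6.19% of peaks below it. In replicates 1 and 2 its ranked signals were 32.6 and 48.6 with scores of 728 and 188, so it was called in neither, and it was missing from the second list.

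The DNA at these summits is shown because it holds the first coding bases of flp-14 and flp-32, and the tRNA gene at the flp-23 summit, whose stretch does not reach the start of flp-23. Each sequence is 75 bp to each side of the conservative summit in ce11 (WBcel235, from RefSeq), on the plus strand, which is the strand of the gene, and GC content was 63.6% at flp-14, 58.3% at flp-23 and 57.0% at flp-32. Capitals mark coding bases of flp-14 and flp-32, which start at the ATG. At flp-23 they mark the tRNA gene.

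flp-14, chrIII:12910481-12910631: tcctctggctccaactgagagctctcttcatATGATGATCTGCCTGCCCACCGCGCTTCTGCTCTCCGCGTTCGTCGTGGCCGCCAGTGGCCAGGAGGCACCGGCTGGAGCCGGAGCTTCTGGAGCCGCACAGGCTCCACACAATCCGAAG

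flp-23, chrIII:8650373-8650523: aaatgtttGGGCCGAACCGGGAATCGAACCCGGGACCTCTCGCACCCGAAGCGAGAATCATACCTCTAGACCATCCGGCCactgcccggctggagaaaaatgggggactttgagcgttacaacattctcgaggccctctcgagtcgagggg

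flp-32, chrX:15433691-15433841: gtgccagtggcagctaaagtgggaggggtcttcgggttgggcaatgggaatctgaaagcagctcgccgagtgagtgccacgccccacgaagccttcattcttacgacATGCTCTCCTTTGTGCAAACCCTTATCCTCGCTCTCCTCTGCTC

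In the second list and in single replicates 3 other flp genes were called. The second list held flp-16, at 280 bp before the gene, where the signal was 88.9. Its ranked signals were 26.2 in replicate 1 and 59.5 in replicate 2. flp-25 was called in replicate 1 alone, with a signal of 57.0 and no ranked summit of replicate 2 within 1000 bp. flp-33 was called in replicate 2 alone, with a signal of 59.5 in an intron, against 5.76 at the nearest ranked summit of replicate 1. flp-34 had the highest local GC content of the flp windows, 61.2%, and was called in none of the 4 thresholded lists. Its ranked summit had a signal of 18.9 and lay elsewhere in the window, at 53.2% GC.

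Among the nlp genes, 4 of the 8 called genes had their summit in a coding exon as their only one. nlp-21 (WBGene00003759, chromosome III 11388624 to 11393262, minus strand) encodes a precursor that is widely used as a fluorescent cargo marker of dense-core vesicles. Its summit lay 3644 bp after the start, in its longest coding exon, with a signal of 466, and 334 and 141 in replicates 1 and 2. The ratio of 2.37 between the replicates was the highest of the member summits. nlp-32 (chromosome III 486114 to 486547, minus strand), which encodes a glycine-rich peptide precursor, had a signal of 314 at 275 bp after the start, and 198 and 113 in the replicates. nlp-68 (chromosome III 10538081 to 10539163, minus strand) had a signal of 217 at 218 bp, and 130 and 88.8 in the replicates. nlp-14 (chromosome X 8917423 to 8919423, minus strand), an orcokinin-like precursor gene, had a signal of 155 at 1501 bp, and 71.3 and 81.7 in the replicates. All 4 were called in both replicates, and replicate 1 was higher at each of them but nlp-14.

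The coding DNA at these 4 summits held codons for pairs of basic residues. Each sequence is 75 bp to each side of the conservative summit in ce11 (WBcel235, from RefSeq), on the minus strand, which is the coding strand, and is shown because the peptide-coding repeats can be read from it. Capitals mark codon pairs for lysine followed by arginine, in frame, a kind of pair that proprotein convertases can cut. There were 4 such pairs in the nlp-21 sequence, 4 in that of nlp-14, 3 in that of nlp-68 and 1 in that of nlp-32.

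nlp-21, chrIII:11389543-11389693: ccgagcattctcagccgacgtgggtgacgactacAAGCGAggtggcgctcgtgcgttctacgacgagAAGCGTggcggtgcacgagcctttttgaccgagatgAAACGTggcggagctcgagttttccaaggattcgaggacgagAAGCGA

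nlp-32, chrIII:486197-486347: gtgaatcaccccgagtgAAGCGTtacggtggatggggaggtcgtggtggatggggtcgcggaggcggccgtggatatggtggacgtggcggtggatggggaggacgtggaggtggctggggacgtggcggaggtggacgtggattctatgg

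nlp-68, chrIII:10538870-10539020: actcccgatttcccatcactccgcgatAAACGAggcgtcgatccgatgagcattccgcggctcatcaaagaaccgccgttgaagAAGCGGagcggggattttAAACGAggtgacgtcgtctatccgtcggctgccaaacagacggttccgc

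nlp-14, chrX:8917847-8917997: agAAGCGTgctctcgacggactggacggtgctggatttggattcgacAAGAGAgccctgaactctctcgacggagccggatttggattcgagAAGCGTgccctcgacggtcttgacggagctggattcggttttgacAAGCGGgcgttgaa

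The pairs lay at nlp summits and at no flp or ins summit. Within 100 bp of the 9 member summits in coding exons there were 2.45 pairs per 100 codons, and 4 of the 9 windows held at least 1 (44.4%). Around all 2649 coding-exon summits of protein-coding genes there were 0.343 per 100 codons, with at least 1 at 16.9%. The 5 nlp summits held 4.34 per 100 codons, against 2.25 over the whole coding sequences of all nlp genes. The genes with these summits differed in their own whole coding sequences. nlp-21 held 10 pairs in 165 codons, nlp-14 12 in 225, nlp-68 4 in 146, nlp-40 2 in 124 and nlp-32 1 in 106. How far the higher value at the summits reflects which nlp genes were called was not tested. The 3 ins summits held none, against 0.329 over ins coding sequences. The whole coding sequences of ins-24, ins-30 and ins-39 have no such pair, so their summits could hold none. The 1 flp summit, that of flp-14, held none, against 2.81 over flp coding sequences and 4 pairs in the 144 codons of flp-14. Over the coding sequences of all 140 members the value was 1.87. These are descriptions of few summits, and the 4 with pairs were those of nlp-21, nlp-14, nlp-68 and nlp-32.

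nlp-25 and nlp-26 lie within 20000 bp of each other on chromosome V and both were called. The nlp-25 summit, 573 bp before the gene, had a signal of 271, and 152 and 126 in replicates 1 and 2. It also lay in a coding exon of kcnl-1, which encodes a calcium-activated potassium channel and spans the site, so the 2 genes share it. The nlp-26 summit, in its intron 884 bp after the start, had a signal of 107, and 56.1 and 51.3 in the replicates. It was called in replicate 1 only, and its GC content of 47.3% was among the 2 lowest of the member summits.

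nlp-40 encodes an intestinal peptide that sets the enteric step of the defecation cycle, and it was the only member with several summits. The gene spans 11495 to 16837 on chromosome I. The summit 22 bp before the gene had a signal of 249, and 126 and 121 in replicates 1 and 2. A summit in an intron, 1531 bp after the start, had a signal of 157, and 76.5 and 77.5 in the replicates. The other 2 lay 3476 and 3680 bp after the start with signals of 131 and 56.4, in intervals that overlap. Within 100 bp, replicate 1 matched only the latter, at 60.8, and replicate 2 only the former, at 78.0. nlp-12 encodes a cholecystokinin-like peptide made in the stretch-sensing neuron DVA. Its summit lay 569 bp upstream, in a coding exon of the nuclear envelope gene emr-1, whose start was 370 bp away. It had a signal of 110, and 53.9 and 51.1 in the replicates, with scores of 754 and 694, so it was called in neither. nlp-15 was called in the second list only, at 26 bp before the gene, where the signal was 79.2.

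**Figure D4:**
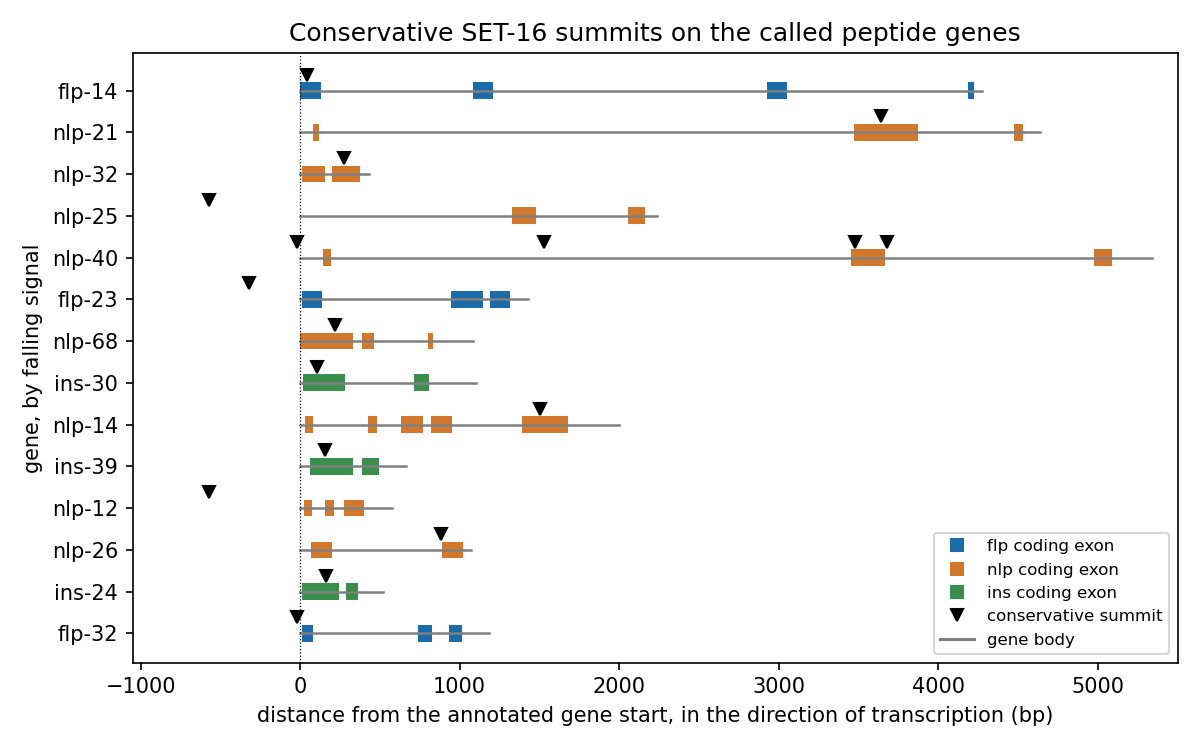
Each row is 1 called gene, drawn from its annotated start in the direction of transcription in bp, with coding exons as boxes and conservative summits as triangles. The summits of flp-14, nlp-32, nlp-68, ins-30, ins-39 and ins-24 lie in coding exons 46 to 275 bp after the start, those of nlp-21 and nlp-14 in later coding exons, and nlp-40 has 4.

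All 3 called ins genes had their summit in the first coding exon. ins-39 (WBGene00017668, chromosome X 1343758 to 1344421) had a signal of 131 at 156 bp after the start, and 60.5 and 72.5 in replicates 1 and 2. It was called in both. ins-30 had a signal of 155 in that exon, and 110 and 49.1 in the replicates. It was called in replicate 1 and had a score of 799 in replicate 2, below the threshold. ins-24 had a signal of 97.3 at 162 bp, and 53.6 and 42.8 in the replicates, with a score of 147 in replicate 2. ins-30 and ins-24 belong to a run of 7 ins genes on chromosome I between 14012369 and 14037777, in which ins-25, ins-26, ins-27, ins-28 and ins-29 were not called. The highest local GC content of these windows ran from 47.3% to 58.7%, the latter at ins-30. ins-29 was called in the second list, with a signal of 77.4 at 97 bp.

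None of 6 well-known DAF-2 ligand genes among the members had a conservative summit, a count too small to set apart from the 17.2% of all genes or the 10% of members. The agonist genes ins-4, ins-6 and ins-7 had none, and neither had the antagonist genes ins-1, ins-18 and ins-37. Of these, ins-37 had a conservative ranked summit, with a signal of 58.8 in its coding exon. daf-28, an agonist gene outside the name rule, differed between the lists. It was called in replicate 1 with a signal of 237 at 404 bp after its start, in a coding exon of 62.2% GC, and in the second list with a signal of 314. No ranked summit of replicate 2 and none of the conservative ranked list lay within 1000 bp of it.

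The replicates can be set side by side at 15 of the 17 member summits. The ratio of replicate 1 to replicate 2 ranked signal ran from 0.672 at flp-32 to 2.37 at nlp-21, with a median of 1.09. Over 5343 conservative summits matched in the same way the median was 1.30. Of the 14 called genes, 9 (64.3%) were called in both replicates, 3 in replicate 1 only, none in replicate 2 only and 2 in neither. Of all 3433 called genes the share called in both was 68.2%. The same 9 members were called in all 4 thresholded lists: they are flp-14, flp-23, nlp-21, nlp-32, nlp-25, nlp-40, nlp-68, nlp-14 and ins-39. That is 6.43% of members, against 11.7% of all genes. The median of the highest signal at called members was 186, against 210 over all called genes, and 86.4% of all called genes lay below flp-14.

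**Figure D5:**
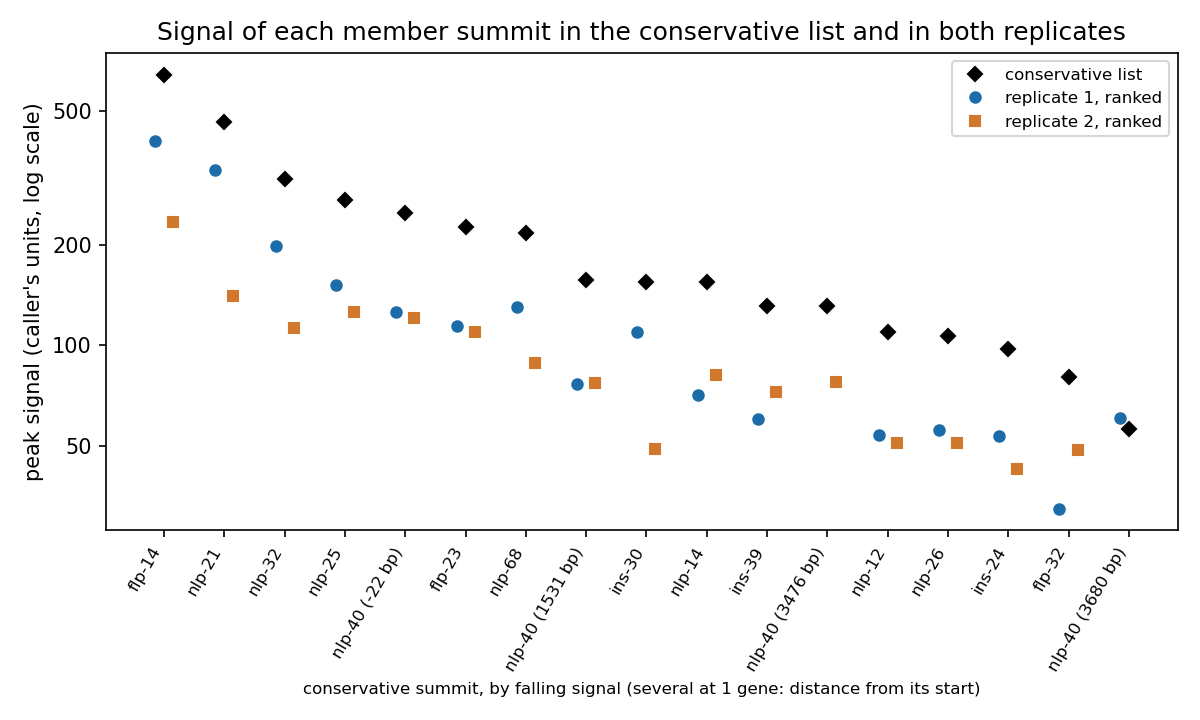
Each column is 1 of the 17 conservative summits, with its signal in the conservative list and at the nearest ranked summit within 100 bp in each replicate, on a log scale. Replicate 1 lies well above replicate 2 at flp-14, nlp-21, nlp-32 and ins-30, and the replicates are close at the summit of nlp-40 at 1531 bp (76.5 and 77.5).

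By place, 9 of the 17 member summits lay in coding exons (52.9%), 5 upstream of the start (29.4%) and 3 in introns (17.6%). Over all protein-coding genes the shares were 49.0%, 22.8% and 25.3%. Places are those within the called gene itself. The upstream summits of nlp-25 and nlp-12 lay in coding exons of kcnl-1 and emr-1, and that of flp-23 in a tRNA gene. The intron summit of nlp-26 at 884 bp lay beside a coding exon that starts at 888 bp. That of nlp-40 at 3680 bp lay beside one that ends at 3665 bp. Coding exons made up 13.1% of the bases of member windows and 29.3% of those of all windows, and upstream DNA 41.5% and 23.7%. Coding exons were also the part of the windows richest in GC, at 47.0% in members and 42.9% in all genes, against 35.0% and 34.6% upstream. The median GC content within 100 bp of the summit was 55.2% at member summits and 54.7% at all conservative summits. Both kinds of summit had a median of 14 CG dinucleotides within 100 bp, against 5.00 in windows of the same length with no ranked summit. Of the 17 summits, 2 lay in the window of another protein-coding gene, those of nlp-25 and nlp-12. Over all protein-coding genes, 24.6% of the pairs of a gene and a summit were shared with another window.

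A search for 8 short motifs on both strands within 100 bp of the summits found few. CAGCTG lay at 2 member summits, nlp-25 and nlp-12, and at 12% of all conservative summits. TAATCC and TGATAA each lay at 1 summit of nlp-40, and at 3.85% and 4.38% of all summits. GAGAGAGA, CACGTG, the DAF-16 element GTAAACA, its companion CTTATCA and the COE motif of UNC-3 were at none of the 17, and at 6.52%, 6.16%, 1.09%, 1.24% and 0.224% of all summits. In 443076 windows of the same length with no ranked summit, CAGCTG was found in 3.53%, TGATAA in 18.7% and GTAAACA in 2.37%.

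Many of the other peptide genes had no summit even in the ranked lists. In none of the 4 ranked lists did 76 members (54.3%) have a summit, against 45.2% of all genes. These were 13 flp, 43 nlp and 20 ins genes. The windows of uncalled members lay a median of 12148 bp from the nearest conservative summit, a distance that was not taken for other genes. Of the 39 members with a conservative ranked summit 35.9% were called in the conservative list, against 41.4% of all genes with one. There were 25 members with a conservative ranked summit and no conservative call. Of those with no call in any thresholded list, the highest per family were flp-8, flp-28 and flp-34 (ranked signals of 52.6, 32.9 and 18.9), nlp-67, nlp-2 and nlp-39 (72.6, 56.4 and 43.3), and ins-37, ins-33 and ins-19 (58.8, 51.8 and 46.7). At flp-8 the replicates gave 10.2 and 41.0, at nlp-67 27.8 and 45.4, and at nlp-2 22.9 and 36.1, so replicate 2 was the higher at each. The ranked summit of ins-19 also lay in the window of ins-31.

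Members in runs were called in about the same share as the others. There were 13 runs of 2 or more members with starts within 20000 bp of each other, holding 45 members, of which 4 were called (8.89%). Of the 95 members outside runs 10 were called (10.5%), and of all genes 17.2%. The epidermal cluster of nlp-27, nlp-28, nlp-29, nlp-30, nlp-31 and nlp-34 on chromosome V is known for antimicrobial peptides induced by fungal infection and wounding. It had no conservative ranked summit at any of its 6 genes, while 27.9% of members and 41.6% of all genes had one. The cluster is small, its windows were 1310 to 1762 bp long, and the difference was not tested. Its local GC content was at most 51.2%. The run of ins-2, ins-3, ins-4, ins-5, ins-6 and ins-20 on chromosome II reached 54.7% and held no call. Its 6 genes are too few to set apart from the 10% of members or the 17.2% of all genes. On chromosome X lay 34 of the 140 members (24.3%), and 13.7% of all genes. On X 3 members were called (8.82%, against 18.3% of X genes), on autosome arms 10 of 62 (16.1% against 21.5%) and in autosome centres 1 of 44 (2.27% against 9.70%), that of flp-23. Centres were the middle of 3 equal parts of each autosome by length, arms the outer ones, and genes were placed by their start. No recombination map was used.

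Genes that process, release or break down the peptides had calls in a larger share than the peptide genes, in longer windows. The list of 18 genes includes the neprilysin-like peptidase genes nep-1, nep-2 and nep-11. Of the 18, 13 were called (72.2%, against 17.2% of all genes), and the median window of the 18 was 5931 bp. Their median highest GC content was 54.5%, against 49.3% for all genes and 48.8% for the peptide genes. The parts of window length and GC content in that share were not tested. The highest signals were 555 at ida-1, a dense-core vesicle protein, 528 at pgal-1 and 496 at pghm-1, which encode the enzymes of the 2 steps of peptide amidation. For pgal-1 the replicates gave 355 and 178, with the summit 41 bp upstream of the start, and for pghm-1 339 and 150. Other called genes were nep-2, a neprilysin-like peptidase (446), unc-31, the CAPS protein of dense-core vesicle release (419), egl-3, the proprotein convertase (348), aex-5 (251), unc-108, the RAB-2 GTPase (244), sbt-1, the 7B2 chaperone of the convertase (163), egl-21, carboxypeptidase E (149), bli-4 (127), hid-1 (116) and nep-11 (99.2). The aex-5 summit also lay in the window of unc-54, and that of sbt-1 in the window of num-1. The highest egl-3 summit lay 994 bp upstream, at the edge of its window. Among the called genes, egl-3 and hid-1 were called in replicate 1 only and egl-21 in replicate 2 only. nep-11 was called in neither replicate. Those not called were pamn-1, kpc-1, rund-1, cccp-1 and nep-1, of which kpc-1 was called in replicate 1 (88.3) and nep-1 in replicate 2 (61.5).

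The receptor genes had few calls. Of 103, 11 were called (10.7%, against 17.2% of all genes), with a median window of 4833 bp and a median highest GC content of 47.3%. The highest signals were at npr-23 (894), npr-33 (495) and npr-37 (328). The npr-23 summit, 203 bp upstream, also lay in the window of vps-4. ckr-2, the receptor for NLP-12, had a signal of 122, and daf-2 had 175, at 1 conservative summit in a window of 47333 bp. The 7 peptide genes outside the name rule were daf-28, pdf-1, snet-1, ntc-1, lury-1, capa-1 and trh-1. None was called in the conservative list (0 of 7), a count too small to set apart from the 17.2% of all genes.

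The share of members called stayed below that of all genes in the other windows and was near it at gene starts. Where the window ended 200 bp after the start in place of the gene end, 9 members (6.43%) and 6.99% of all genes were called. These were 3 flp genes (9.68%), 3 ins genes (7.89%) and 3 nlp genes (4.23%), counts too small to set apart from the 6.99% of all genes. In gene bodies alone the count was 10 (7.14% against 13.0%). With 2000 bp upstream it was 16 (11.4% against 20.5%), and by overlap of the peak interval 15 (10.7% against 18.1%). With only summits in the window of no other gene it was 12 (8.57% against 12.8%), and with 1 summit per interval 14 (against 17.2%). For the conservative peaks at or above the median signal of that list (170) it was 7 (5.00% against 10.2%). In the ranked lists of the replicates, 47 members (33.6%) had a summit in replicate 1, against 43.9% of all genes, and 50 (35.7%) in replicate 2, against 46.6%.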

How the data were processed

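The deposited peak lists derive from alignments on ce11 and other files whose kind is not stated, per the deposited readme files. The aligner and the peak caller were not given in the sources used here, nor was the scale of the signal. Each peak has a signal in the caller's units and a score, both as the authors deposited them, with the interval start counted from 0 and the summit as an offset from it (other columns of the deposited lists). Read depth is unknown. A summit was taken as start plus offset and is printed counted from 1. Genes came from Ensembl release 115 (WBcel235, the same assembly as ce11) and sequence from RefSeq (WBcel235), whose chromosome lengths hold all peaks. Replicate signals were read at the nearest ranked summit within 100 bp. GC content was taken over 100 bp to each side of a centre, every 25 bp. Coding frames are those of the longest coding sequence of each gene. Window assignment was tested on simulated data against a direct search. No test was run: there is 1 group, and the members, gene lists and motifs were chosen with earlier results of these data known. The named genes are all called members, those called in another list only, the 3 per family with the highest ranked signal among the rest, the called processing genes and the 3 receptor genes of highest signal. flp-34, ckr-2, daf-2, the genes that share summits and the classes of GC content and window length were singled out after the data were seen. Python 3.11.15, numpy 2.4.6 and scipy 1.17.1 were used.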

Additional observations from a re-analysis of the deposited data

How the results depend on the processing

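No paired analysis was possible because the series holds a single group. Of 68 alternative values, 45 stayed close to the reported one (counts within 1.5 times) and 23 moved. The limits differed between kinds of value. An upstream share of 42.9% with 2000 bp upstream, against 29.4%, was taken as close. A GC content of 56.2% in replicate 2, against 55.2%, was taken as moved. Motifs found at no summit within 100 bp could not change within 50 bp, and they are among the values that stayed. With the conservative peaks at or above the median signal, 7 members, 5 nlp genes and 0 ins genes were called, the median signal was 271 and the median GC content 59.2%. In the gene start window 9 members and 3 nlp genes were called, with a median signal of 155. In gene bodies 1 flp gene was called, with a median signal of 156 over members. With the ranked list 39 members had a summit, 10 flp, 18 nlp and 11 ins genes. Leaving out a replicate gave 10 to 13 members, 3 flp genes either way, 6 to 7 nlp and 1 to 3 ins genes, an upstream share of 20.0% to 25%, and a GC content of 55.2% to 56.2%. GC content was 56.4% within 50 bp of the summit and 44.9% within 250 bp. The replicate ratio was 1.05 when summits were matched within 50 or 200 bp and 1.13 for members called in both replicates. TAATCC and TGATAA were at 0 summits within 50 bp. The cause of these moves was not tested. The 1 ins gene of replicate 2 is ins-39. The alternative with 1 summit per interval and the classes of GC content and window length were chosen after seeing the data. With no read counts, a missing call cannot be set against depth.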
